A study of Rattus norvegicus with 11 samples.

Results

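10 genes known from the choroid plexus, Ttr, Kcne2, Kl, Slc4a5, Tmem72, Clic6, Mfrp, Aqp1, Col8a2 and Folr1, were followed by symbol in the corpora quadrigemina of 11 rats. They are 10 of the 32883 genes in the count files, and their Ensembl identifiers were taken from the symbols of the study's list of differing genes. The tissue was the inferior and superior colliculi together, from 4-month-old male rats, each sequenced as its own poly(A) library. The 3 KM rats belong to the Krushinsky-Molodkina strain, an inbred line selected from Wistar rats for audiogenic seizures, which are convulsions set off by a loud sound. The 4 “0” rats come from a line selected from hybrids of KM and Wistar rats for the lack of such seizures, and the line is still under selection. The 4 W rats are outbred Wistar rats that had no seizures in response to sound. Rats of all strains were exposed to sound 4 days before the tissue was taken. Earlier, when 3 months old, the KM rats had been tested 1 time and the “0” rats 3 times. The paper reports tonic convulsions of the highest score after sound for KM rats. Of the “0” line it used only rats without a response to sound. Strain and response to sound therefore cannot be told apart here.

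The choroid plexus is a folded sheet of epithelium over a vascular core that hangs in the brain ventricles and secretes cerebrospinal fluid. Its epithelial cells move sodium, chloride, bicarbonate and water from blood to ventricle, take up folate, and release carrier proteins, among which transthyretin is the best known. The colliculi lie next to the cerebral aqueduct and hold no choroid plexus of their own, and the plexus of the neighbouring ventricles lies close to them. In whole tissue, the number of cells of a type and the RNA per cell cannot be told apart.

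Promoter sequences are shown for 4 of the 10 genes, as the bases just before the transcription start. Ttr and Kl are shown since they stood highest in one rat against all others, and Mfrp and Aqp1 since only they held a searched motif. All are 250 bases long and come from RefSeq in build GRCr8, read 5′ to 3′ on the gene's own strand, while the counts were made on build Rnor_6.0. Capitals mark a motif match.
Ttr, chr18:12218508-12218757 (+ strand): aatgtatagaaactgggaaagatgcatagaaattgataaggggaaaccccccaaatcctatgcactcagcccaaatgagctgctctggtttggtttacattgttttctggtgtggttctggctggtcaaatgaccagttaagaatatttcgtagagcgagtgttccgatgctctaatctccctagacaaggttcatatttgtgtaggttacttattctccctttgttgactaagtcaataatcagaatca
Kl, chr12:5325753-5326002 (+ strand): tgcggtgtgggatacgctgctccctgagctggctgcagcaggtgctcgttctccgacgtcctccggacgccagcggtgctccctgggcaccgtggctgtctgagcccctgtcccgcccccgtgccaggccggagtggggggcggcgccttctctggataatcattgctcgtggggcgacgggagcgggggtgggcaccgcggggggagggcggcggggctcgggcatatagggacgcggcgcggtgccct
Mfrp, chr8:53342284-53342533 (+ strand): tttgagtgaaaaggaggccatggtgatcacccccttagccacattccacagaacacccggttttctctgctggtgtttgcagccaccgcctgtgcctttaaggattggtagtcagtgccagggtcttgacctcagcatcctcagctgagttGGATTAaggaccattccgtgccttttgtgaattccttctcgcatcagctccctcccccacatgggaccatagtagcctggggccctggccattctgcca
Aqp1, chr4:85812534-85812783 (+ strand): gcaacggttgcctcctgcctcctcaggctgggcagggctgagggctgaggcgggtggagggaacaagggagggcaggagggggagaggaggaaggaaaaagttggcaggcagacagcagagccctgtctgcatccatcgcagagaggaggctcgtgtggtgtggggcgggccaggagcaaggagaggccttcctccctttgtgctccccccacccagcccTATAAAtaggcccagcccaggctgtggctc
RefSeq promoter entries were matched for 7 of the 10 genes, not for Kcne2, Clic6 and Folr1. The Otx motif TAATCC, searched on both strands, was found in 1 of the 7, Mfrp, on the reverse strand 99 bases before the start, and in 6.34% of all 33469 promoters. The forkhead motif GTAAACA was found in 0 of the 7 and in 3.21% of all promoters. A TATAAA box was found in 1 of the 7, Aqp1, 30 bases before the start, and in 12.9% of all promoters. The promoters also differed in base composition, with 40.4% G and C in Ttr, 52.8% to 65.2% in Slc4a5, Mfrp, Tmem72 and Aqp1, and 73.2% in both Kl and Col8a2. These matches describe the letters in the window and say nothing of the binding of a factor. Other spellings of a motif and bases outside the window were not searched. Kcne2 and Clic6 lie on the same chromosome, 11, with 5 protein-coding genes between them.

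Reads counted on genes numbered 10545964 in the shallowest library, “0” 2, and 15140180 in the deepest, KM 3. Levels are given as CPM, the counts of a gene per 1000000 reads counted on genes, and 3 counts, the smallest amount read as present, correspond to 0.198 to 0.284 CPM for counting error alone. CPM is not divided by transcript length, so levels are compared between rats and not between genes. The library of KM 3 stood apart. Of 13694 genes with a mean of at least 1 CPM, 32 were at least 5-fold higher in KM 3 than in every other rat, against 1 gene in “0” 2 and 0 in each of the other 9 rats. All 10 choroid plexus genes were among these 32, and 7 of them were among the 19 genes at least 10-fold higher. The 10 were chosen with earlier results of these data known, from genes the study lists as differing between KM and W or “0” rats. Their place among the 32 is therefore a description and not independent evidence. As KM 3 stood apart, the comparisons of the 10 genes with KM rats are given with and without KM 3. The 10 genes with most reads took 7.94% of the counted reads in KM 3 and 7.95% in “0” 4, against 13.9% to 29.2% in the other 9 libraries. The part of this difference between libraries in the levels of the 10 genes was not tested.

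Ttr encodes transthyretin, the carrier of thyroxine and of the retinol-binding protein complex in cerebrospinal fluid and plasma. It was counted 125, 439 and 108687 times in KM 1, KM 2 and KM 3, which is 10.7, 38.0 and 7179 CPM. The 4 “0” rats held 1.08, 1.33, 0.54 and 0.15 CPM, and the 4 W rats 2.43, 5.84, 43.6 and 2.59 CPM. KM 3 was therefore 165-fold above the next rat, W 3, and 2863-fold above the median of the other 10 rats. Ttr was the gene ranked 4 by number of reads in that library, where it took 0.718% of all counted reads, and KM 3 held 98.9% of the Ttr reads of all 11 rats. “0” rats were the lowest, with 14, 14, 6 and 2 counts, the last of these under the 3-count floor, and no “0” rat reached the lowest W or KM rat. The spread within W rats was wide as well, from 2.43 to 43.6 CPM.

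**Figure D1:**
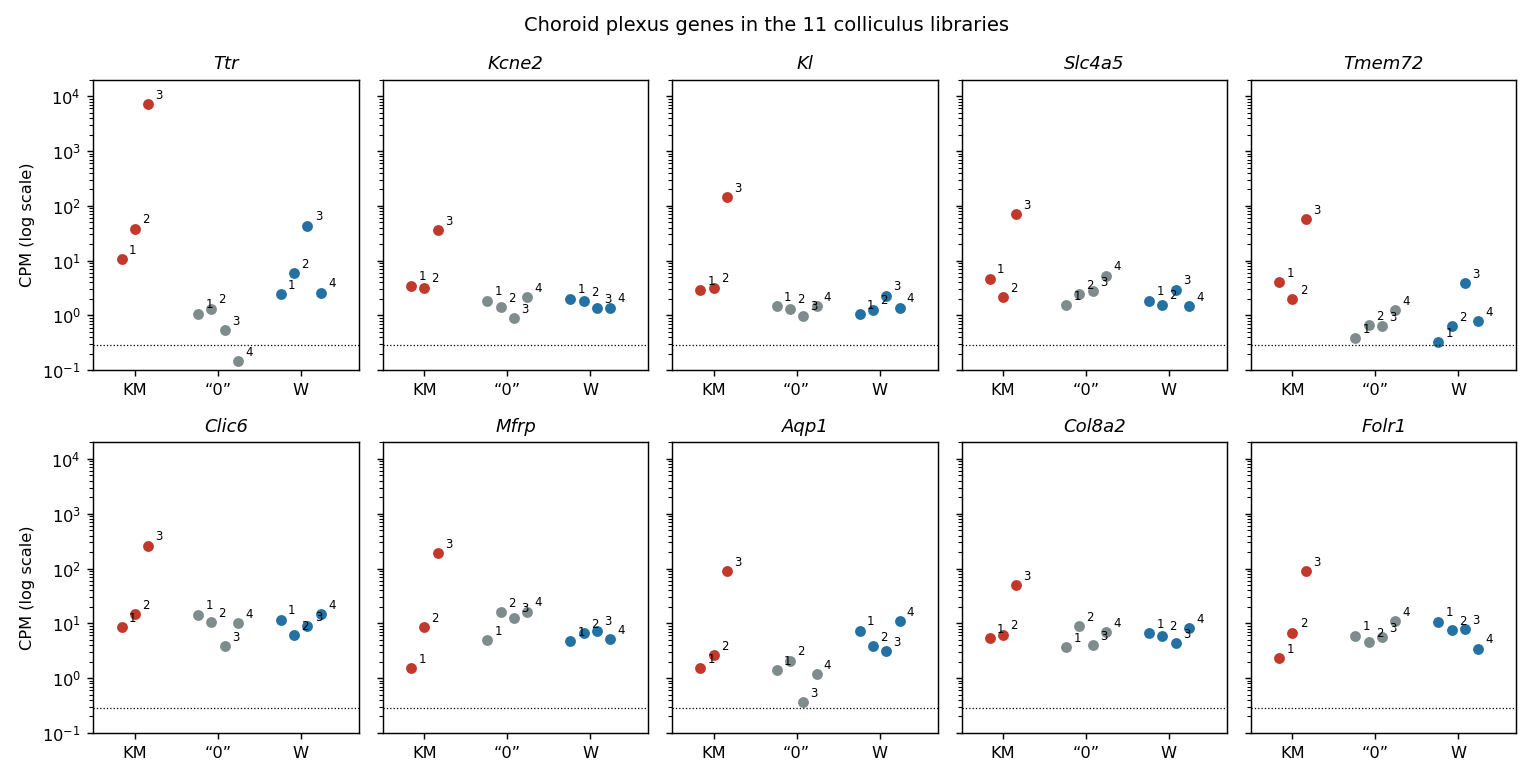
CPM of the 10 choroid plexus genes (vertical axis, log scale, the same in all panels) in the KM, “0” and W rats (horizontal axis). Each point is 1 rat with its number, and the dotted line is 0.284 CPM, the highest 3-count floor of the 11 libraries. KM 3 is the highest point of every panel, from 36.3 CPM for Kcne2 to 7179 CPM for Ttr.

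Of the genes for ion and water transport, Kcne2 encodes a small beta subunit of potassium channels found in the apical membrane of the choroid plexus. Its levels were 3.50, 3.20 and 36.3 CPM in KM 1 to KM 3, 1.85, 1.42, 0.90 and 2.13 CPM in the “0” rats, and 2.02, 1.81, 1.35 and 1.38 CPM in the W rats. All 3 KM rats were above all 8 other rats, and KM 3 was 10.4-fold above the next rat, KM 1. Slc4a5, a sodium bicarbonate cotransporter of the apical membrane, was at 4.69, 2.16 and 70.6 CPM in KM rats, 1.54, 2.47, 2.78 and 5.29 CPM in “0” rats and 1.86, 1.58, 2.95 and 1.47 CPM in W rats. Here KM 1 and KM 2 lay within the range of the other strains, and only KM 3 stood out, 13.4-fold above “0” 4. Clic6, a member of the chloride intracellular channel family, was at 8.44, 14.6 and 259 CPM in KM rats, 14.4, 10.4, 3.86 and 9.98 CPM in “0” rats and 11.6, 5.996, 8.85 and 14.5 CPM in W rats. The strains overlapped in the 10 rats other than KM 3, between 3.86 and 14.6 CPM, and KM 3 was 17.7-fold above the highest of them.

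Aqp1 encodes aquaporin-1, the water channel of the apical membrane of the choroid plexus, which is also present in red blood cells. It was at 1.53, 2.60 and 89.1 CPM in KM rats, 1.39, 2.09, 0.36 and 1.17 CPM in “0” rats, and 7.36, 3.87, 3.12 and 11.1 CPM in W rats. KM 3 was 8.06-fold above W 4, and apart from KM 3 every W rat was above every KM and “0” rat. This order was unlike that of Kcne2, in which W and “0” rats were mixed.

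Kl encodes klotho, which serves as a coreceptor for fibroblast growth factor 23 and is shed into cerebrospinal fluid. It was at 2.90, 3.20 and 145 CPM in KM rats, 1.46, 1.33, 0.99 and 1.47 CPM in “0” rats, and 1.05, 1.26, 2.28 and 1.38 CPM in W rats. As with Kcne2, all 3 KM rats were above all 8 others, and KM 3 was 45.4-fold above KM 2. Folr1, the folate receptor alpha that carries folate across the epithelium, was at 2.30, 6.75 and 90.2 CPM in KM rats, 5.93, 4.55, 5.56 and 10.9 CPM in “0” rats, and 10.7, 7.49, 7.76 and 3.45 CPM in W rats. KM 1 was the lowest of the 11 rats for Folr1, and KM 3 the highest, 8.24-fold above “0” 4.

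Mfrp, a membrane frizzled-related protein known from the retinal pigment epithelium, was at 1.53, 8.40 and 190 CPM in KM rats, 4.93, 16.0, 12.7 and 16.2 CPM in “0” rats, and 4.69, 6.63, 7.33 and 5.09 CPM in W rats. Among the 10 rats other than KM 3, 3 of the 4 “0” rats were the highest and KM 1 the lowest. Tmem72, a transmembrane protein, was at 4.01, 1.99 and 57.3 CPM in KM rats, 0.38, 0.66, 0.63 and 1.25 CPM in “0” rats, and 0.32, 0.63, 3.88 and 0.78 CPM in W rats. All KM rats were above all “0” rats for Tmem72, while W 3 lay between KM 1 and KM 2. Col8a2, a chain of type VIII collagen of basement membranes, was at 5.29, 6.23 and 49.5 CPM in KM rats, 3.69, 8.82, 3.95 and 6.83 CPM in “0” rats, and 6.63, 5.92, 4.38 and 8.20 CPM in W rats. It had the smallest distance between KM 3 and the next rat of the 10 genes, 5.62-fold, and the other 10 rats showed no order by strain.

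**Figure D2:**
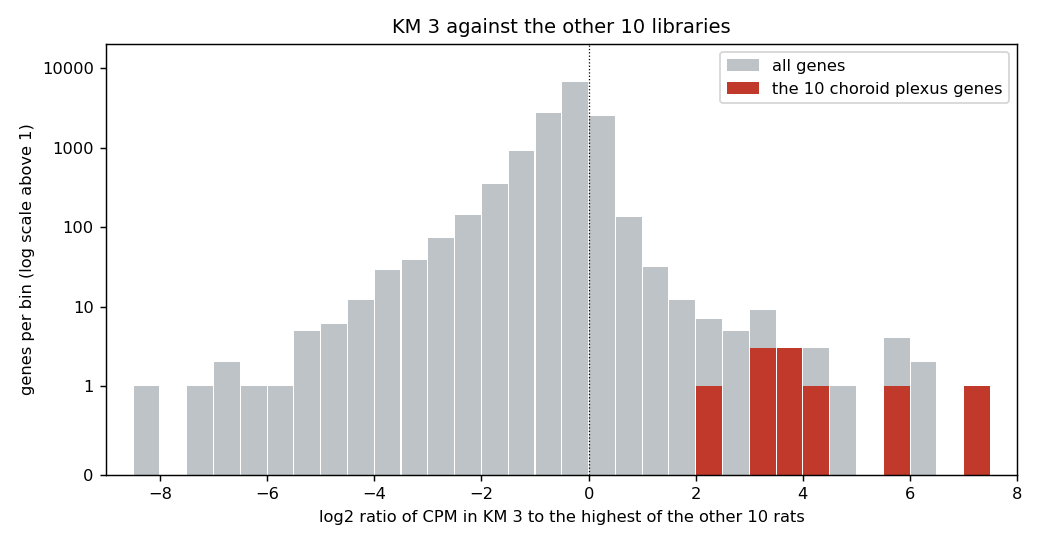
Number of genes (vertical axis, log scale above 1) by the log2 ratio of CPM in KM 3 to the highest of the other 10 rats (horizontal axis) for 13694 genes in grey, with the 10 choroid plexus genes in red. The dotted line is equal CPM. All 10, chosen with earlier results of these data known, lie to its right, from Col8a2 at 5.62-fold to Ttr at 165-fold.

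The comparison of KM with W rats sets the seizure-prone strain against present-day rats of the outbred stock it came from. The paper states that these strains had long been bred separately. With all 7 rats, 7 of the 10 genes were higher in KM rats in the QLF test at an unadjusted p under 0.05 (Ttr, Kcne2, Kl, Slc4a5, Tmem72, Clic6 and Mfrp), where 5.58% of all 13721 genes tested were called higher and 5.33% lower. The symbols come from genes that the study lists as differing in KM vs W or KM vs “0”, so these counts describe the genes and are not independent evidence. The median log2-fold change of the 10 genes was 3.16, against 0.01 for all genes tested. The largest was that of Ttr, 7.27 with a standard error of 2.19 (adjusted p = 0.347), followed by Kl with 4.89 ± 1.33 (SE, adjusted p = 0.322). Kcne2 had a log2-fold change of 2.96 ± 0.80 (SE, adjusted p = 0.322), Slc4a5 of 3.54 ± 1.04 (adjusted p = 0.335), Tmem72 of 3.73 ± 1.19 (adjusted p = 0.366), Clic6 of 3.01 ± 1.02 (adjusted p = 0.390) and Mfrp of 3.31 ± 1.20 (adjusted p = 0.411). Aqp1 (2.10 ± 1.16, adjusted p = 0.563), Col8a2 (1.53 ± 0.70, adjusted p = 0.479) and Folr1 (2.01 ± 0.98, adjusted p = 0.508) did not pass the test. None of the 10 had a Benjamini-Hochberg adjusted p under 0.05 in edgeR, the lowest being 0.322, where 0.0656% of all genes did. Mean CPM with the spread of the 3 KM rats was 2409 ± 4131 (SD) for Ttr, against 13.6 ± 20.0 in the 4 W rats, and KM 3 alone was above the highest W rat.

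Without KM 3, 3 of the 10 genes were called. Kcne2 was higher in KM rats, by 0.97 on the log2 scale (SE 0.28, adjusted p = 0.364), with 3.35 ± 0.21 CPM (SD, n = 2) against 1.64 ± 0.33 CPM (SD, n = 4). Kl was also higher, by 0.97 (SE 0.37, adjusted p = 0.401), with 3.05 ± 0.22 CPM against 1.49 ± 0.54 CPM. Aqp1 changed direction and was lower in KM rats, with a log2-fold change of -1.69 (SE 0.61, adjusted p = 0.390) and 2.07 ± 0.75 CPM against 6.35 ± 3.64 CPM. The red blood cell markers Hba-a2 (-0.77) and Lgals5 (-1.35) were lower in KM rats in the same fit and Alas2 (-0.57) did not pass, and their part in the Aqp1 difference was not tested. In this fit 5.86% of 13677 genes were called higher and 5.75% lower, and 0.0146% passed at an adjusted p, none of them choroid plexus genes. Ttr was at 0.78 (SE 1.13, adjusted p = 0.809), and W 3 decided that value, for without W 3 as well it was 2.71 (SE 0.59) and past the unadjusted threshold, and without KM 2 in place of W 3, with KM 1 as the only KM rat, it was -0.46 (SE 1.63). Slc4a5 (0.74), Tmem72 (1.03), Clic6 (0.11), Mfrp (-0.31), Col8a2 (-0.19) and Folr1 (-0.73) did not pass the test. The median over the 10 genes was 0.42. The number called was 6 without W 3 and 2 without W 1 or without W 2. It was 1 without KM 1 and 5 without KM 2, but these fits hold 1 KM rat, which is assumed to vary like the W rats.

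In an exact two-sided permutation test of the strain labels on CPM, 3 rats against 4 cannot give a p under 0.0571. That value was reached in KM vs W by Kcne2 and Kl, whose strains did not overlap, while the exact p of Ttr was 0.229. With KM 3 left out the smallest possible p is 0.133, which Kcne2, Kl and Aqp1 reached. The share of all genes without overlap between the strains was determined in neither case.

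**Figure D3:**
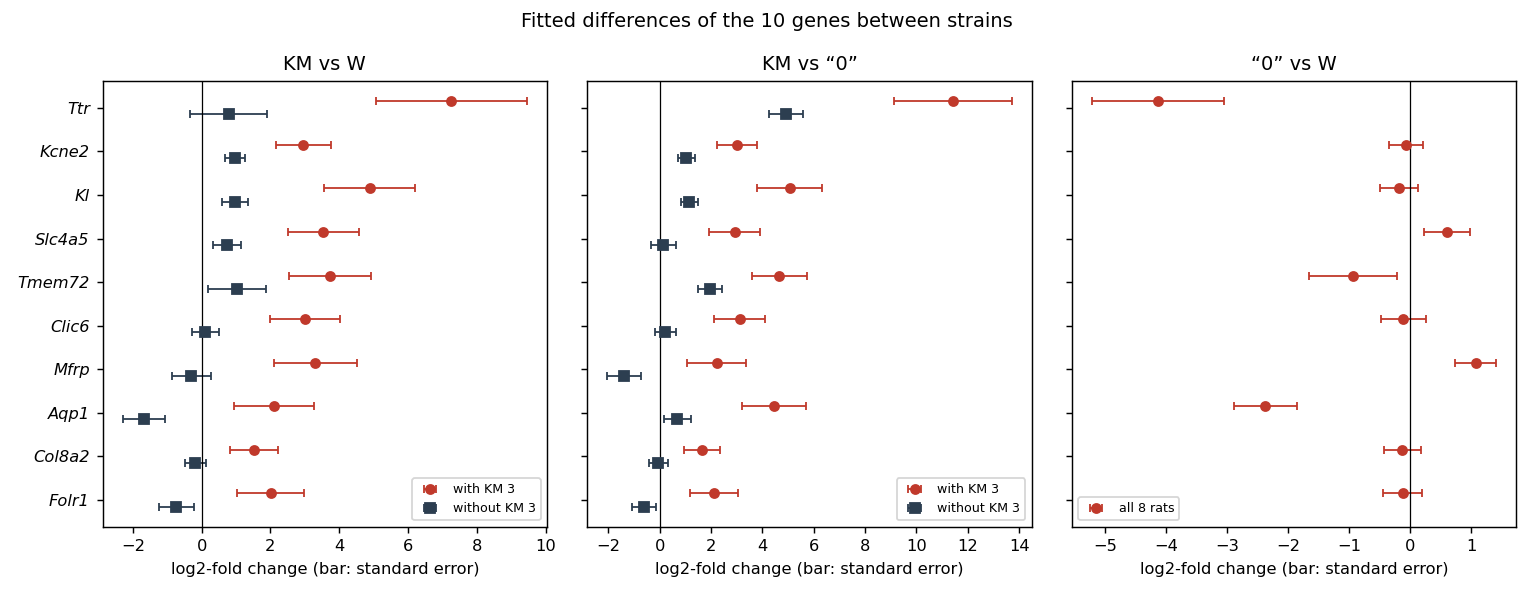
Log2-fold change with its standard error (horizontal axis) of the 10 choroid plexus genes (rows) in the QLF test, with 1 panel for each pair of strains (KM vs W on the left, “0” vs W on the right). Red circles are the fits with all rats and dark squares the fits without KM 3; without it the log2-fold change of Ttr goes from 7.27 to 0.78 in KM vs W and from 11.41 to 4.93 in KM vs “0”.

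The comparison of KM with “0” rats sets the seizure-prone strain against a line selected for the absence of seizures from a cross with it. It shares the KM rats with the previous comparison, so the same KM 3 values enter both. With all 7 rats, 9 of the 10 genes were higher in KM rats at an unadjusted p under 0.05, all but Mfrp, where 2.37% of 13686 genes were called higher and 1.29% lower. The median log2-fold change was 3.06, against 0.01 for all genes. Ttr differed by 11.41 on the log2 scale (SE 2.30, adjusted p = 0.351), Kl by 5.06 (SE 1.27, adjusted p = 0.797), Tmem72 by 4.66 (SE 1.07, adjusted p = 0.541) and Aqp1 by 4.46 (SE 1.26, adjusted p = 0.987). Kcne2 (3.02, adjusted p = 0.907), Clic6 (3.11, adjusted p = 0.987), Slc4a5 (2.92, adjusted p = 0.987), Folr1 (2.12, adjusted p = 0.987) and Col8a2 (1.65, adjusted p = 0.987) followed, and Mfrp was at 2.23 (SE 1.15, adjusted p = 0.987). None of the 10 passed at an adjusted p under 0.05, which 0.0146% of all genes did.

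Without KM 3, 4 of the 10 genes were higher in KM than in “0” rats and 0 were lower, where 4.49% of 13641 genes were called higher and 2.26% lower. Ttr remained the largest, with a log2-fold change of 4.93 (SE 0.67, adjusted p = 0.0759), and 24.3 ± 19.3 CPM in the 2 KM rats against 0.77 ± 0.53 CPM in the 4 “0” rats. Tmem72 was higher by 1.98 (SE 0.47, adjusted p = 0.518), Kl by 1.16 (SE 0.32, adjusted p = 0.669) and Kcne2 by 1.05 (SE 0.35, adjusted p = 0.715). For these 4 genes KM 1 and KM 2 were both above all 4 “0” rats, and the exact permutation p was 0.133, the smallest that 2 rats against 4 allow. These genes were called in the same rats, so their separation is no further evidence. The share of all genes separated in this way was not determined. Slc4a5 (0.15), Clic6 (0.23), Aqp1 (0.70), Col8a2 (-0.05), Folr1 (-0.60) and Mfrp (-1.37, adjusted p = 0.779) did not pass the test, and the median over the 10 genes was 0.46. At an adjusted p under 0.05, 0.0367% of all genes passed and 0 of the 10 genes. With any 1 of the 4 “0” rats left out as well, Ttr was past the unadjusted threshold. The number called was 2 without KM 1, in a fit with 1 KM rat, which is assumed to vary like the “0” rats.

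**Figure D4:**
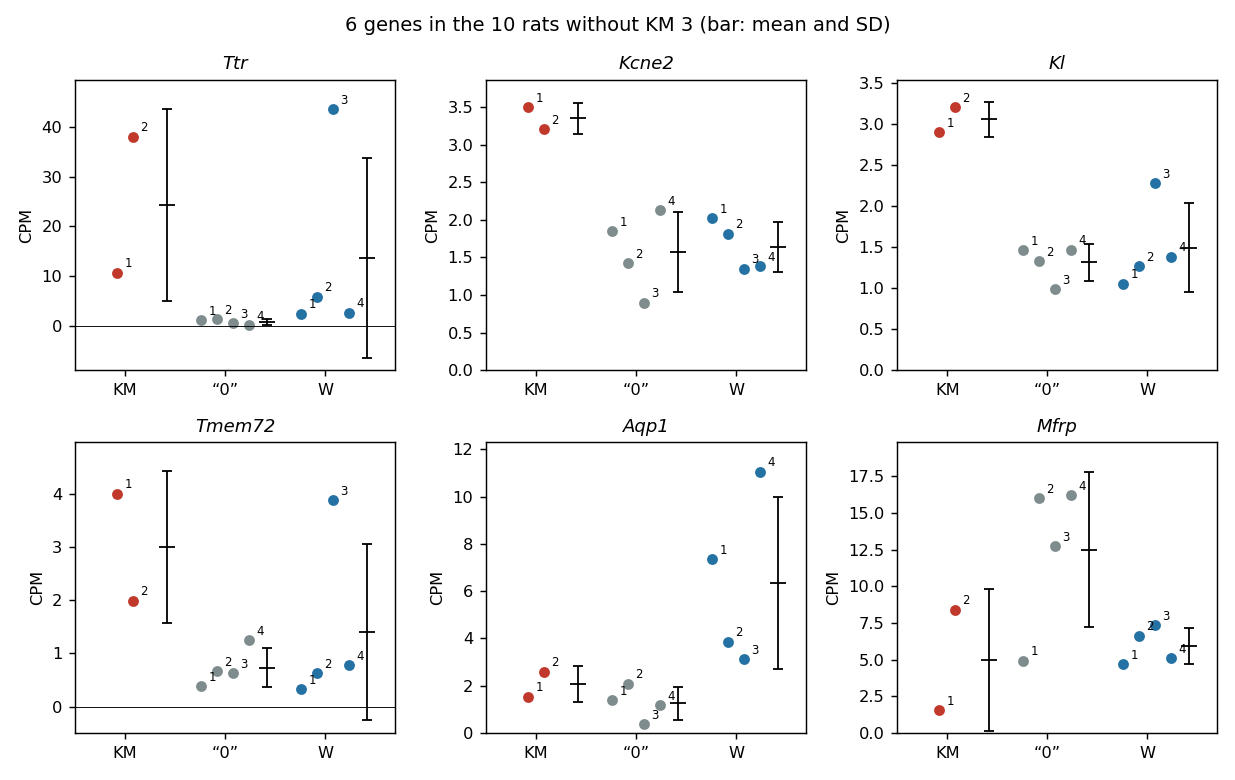
CPM (vertical axis, linear, its own scale in each panel) of Ttr, Kcne2, Kl, Tmem72, Aqp1 and Mfrp in the 10 rats other than KM 3, by strain (horizontal axis). Points are rats with their numbers, and the bar beside each strain is the mean and SD of 2 KM, 4 “0” or 4 W rats; KM 1 and KM 2 are above all other rats for Kcne2 and Kl, and W rats are above the rest for Aqp1.

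The comparison of “0” with W rats does not involve KM 3. In it 2 of the 10 genes were lower in “0” rats and 1 was higher at an unadjusted p under 0.05, where 3.43% of 13630 genes were called lower and 3.26% higher. Ttr was lower in “0” rats with a log2-fold change of -4.13 (SE 1.08, adjusted p = 0.326), and without W 3 it was -2.20 (SE 0.60), still past the unadjusted threshold. Aqp1 was lower with -2.37 (SE 0.52, adjusted p = 0.196), at 1.25 ± 0.71 CPM (SD, n = 4) against 6.35 ± 3.64 CPM (SD, n = 4). Neither gene overlapped between the strains, and each reached the smallest exact permutation p of 4 rats against 4, 0.0286. The share of all genes without such overlap was not determined. Mfrp was higher in “0” rats with 1.07 (SE 0.34, adjusted p = 0.4997), at 12.5 ± 5.28 CPM against 5.94 ± 1.25 CPM, but “0” 1 lay within the W range and the exact permutation p was 0.114. These 3 genes stayed past the unadjusted threshold with any 1 of the 8 rats left out. In a fit of all 11 rats, which includes KM 3 in the estimate of the spread, none of the 3 passed the unadjusted threshold, and 0 of the 10 genes were called.

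The other 7 genes had log2-fold changes between -0.94 (Tmem72) and 0.60 (Slc4a5) in “0” vs W rats. Kcne2 (-0.07), Kl (-0.19), Clic6 (-0.11), Folr1 (-0.12) and Col8a2 (-0.13) were the closest to 0. The median over the 10 genes was -0.13, against -0.01 for all genes, and 0.11% of all genes but none of the 10 passed at an adjusted p under 0.05, the lowest adjusted p being 0.196 for Aqp1.

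Markers of red blood cells moved with Aqp1 and Ttr in this comparison. Of 7 listed markers 3 could be named, all from the study's list of differing genes, so their count is a description. These were Hba-a2 (an alpha globin), Alas2 (heme synthesis in red cells) and Lgals5 (a galectin of rat reticulocytes). Their summed CPM was 298 to 467 in “0” rats and 804 to 1807 in W rats. All 3 were lower in “0” rats, with log2-fold changes of -1.73, -1.57 and -2.84, where 3.43% of all genes were called lower. In KM 1, KM 2 and KM 3 the sum was 783, 740 and 370. Within W rats the order of Hba-a2 and Alas2, highest in W 4, then W 1, W 2 and W 3, was also the order of Aqp1. Lgals5 did not follow it, with 19.6 CPM in W 1 as its highest and 8.84 CPM in W 2 as its lowest. In the “0” rats Aqp1 was highest in “0” 2 and Hba-a2 in “0” 1, and both were lowest in “0” 3. Ttr did not follow the order of Aqp1 in W rats, being highest in W 3. KM 3, the highest rat for Aqp1, had a lower sum than KM 1 and KM 2. The part of blood in the Aqp1 and Ttr differences was not tested.

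Among the 10 rats other than KM 3 the genes did not move as a block. In the W rats, W 3 was the highest for Ttr, Kl, Slc4a5, Tmem72 and Mfrp, 5 of the 10 genes, while Clic6, Aqp1 and Col8a2 were highest in W 4 and Kcne2 and Folr1 in W 1. In the “0” rats, “0” 4, the library with the low share of the most counted genes, was the highest for 6 genes, Kcne2, Kl, Slc4a5, Tmem72, Mfrp and Folr1, and at the same time the lowest for Ttr. Pearson's r of log2 CPM between Ttr and the other 9 genes over all 11 rats was between 0.57 (Mfrp) and 0.91 (Kl, permutation p = 0.00098, Spearman's rho 0.65, p = 0.0362), and these values rest on KM 3. Over the 10 rats without it r ranged from -0.42 (Mfrp) to 0.75 (Kl, permutation p = 0.0137, rho 0.53, p = 0.121). Tmem72 had r = 0.65 (permutation p = 0.0442) and rho 0.58 (p = 0.0879). Adjusted over the 9 pairs, the permutation p of r was 0.123 for Kl and 0.199 for Tmem72. Without W 3 as well, the 2 rats farthest from the median of Ttr being left out, r was 0.73 for Kl and 0.50 for Tmem72. All rats share library and depth between genes.

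Of the 10 genes outside the choroid plexus set most like Ttr over the 11 rats, 3 could be named, and these were Ace (r = 0.90), Lgals3bp (r = 0.89) and Nudt7 (r = 0.88). Over the 10 rats without KM 3 the named genes among the 10 most alike were Acyp1 (r = 0.90), Tagap (r = 0.89), Irf7 (r = 0.89), Oas1a (r = 0.89) and Nudt7 (r = 0.85). Kl ranked 3 of 13693 genes in likeness to Ttr with KM 3 and place 45 of 13660 without it.

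A wider list of 32 genes known from choroid plexus epithelium was reduced to the 8 that the study's list of differing genes names, so its counts too are descriptions. Defining markers such as Otx2 and Kcnj13 were not among the 8 and were not analysed here. In KM vs W 6 of these 8 were higher, where 5.58% of all genes tested were. Without KM 3 only Lmx1a (log2-fold change 2.26) and Ace (0.51) were, against 5.86% of all genes. In KM vs “0” 5 were higher and Perp was lower (-0.83), where 2.37% of all genes were higher and 1.29% lower. Without KM 3 again Lmx1a (1.68) and Ace (0.48) were higher, against 4.49% of all genes. Lmx1a, a transcription factor of the roof plate from which the choroid plexus arises, was at 5.03, 3.46 and 9.38 CPM in KM rats and at 0.59 to 1.92 CPM in the other 8. Ace, the angiotensin-converting enzyme, was at 48.2, 53.4 and 256 CPM in KM rats and at 28.1 to 41.4 CPM in the others. Enpp2, the autotaxin enzyme, which is also made by oligodendrocytes, was at 205, 207 and 1261 CPM in KM rats and at 137 to 218 CPM in the others. Msx1, a homeobox factor, was at 4.86, 4.15 and 36.7 CPM in KM rats, Wfikkn2, a secreted protease inhibitor, at 9.29, 7.62 and 46.9 CPM, and Car12, a carbonic anhydrase, at 17.6, 6.58 and 44.5 CPM. KM 3 was the highest rat for these 6 genes, of which Msx1 did not pass the test in KM vs W (1.16). Perp, a desmosomal protein, did not follow, at 6.80 CPM in KM 3 and up to 15.1 CPM in “0” 1. In the 10 rats other than KM 3, KM 1 and KM 2 were above the other strains for Lmx1a and Ace. The share of all genes for which this held was not determined. In “0” vs W 1 of 8 was higher, Wfikkn2 (0.64), where 3.26% of all genes were. The summed CPM of the 8 was 326, 327 and 1734 in KM rats, 228 to 301 in “0” rats and 221 to 313 in W rats.

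For cerebrospinal fluid secretion 3 of 12 listed genes could be named. In KM vs W the sodium potassium chloride cotransporter Slc12a2 (0.60) and the carbonic anhydrase Car14 (0.57) were higher and the anion exchanger Slc4a2 (0.62) did not pass, without KM 3 only Slc12a2 did (0.46), and 0 of 3 were called in KM vs “0”. In “0” vs W Slc12a2 was higher in “0” rats (0.58). For the handling of thyroid hormone and retinol, the ligands of transthyretin, 3 of the 12 listed genes are described. The retinol-binding protein receptor Stra6 was at 2.81, 1.30 and 12.02 CPM in KM rats, 0.29 to 1.31 CPM in “0” rats and 1.86 to 3.80 CPM in W rats, and like Ttr it was lower in “0” than in W rats (-1.73). Slco1c1, a thyroxine transporter, was higher in KM than in W rats (0.32), a call that was lost without KM 3. The thyroid hormone binding protein Crym was lower in “0” than in W rats (-1.41) and higher in KM than in “0” rats (2.06, and 2.58 without KM 3). Crym was at 99.1, 17.9 and 7.79 CPM in KM rats, 6.19 to 13.5 CPM in “0” rats and 5.90 to 46.7 CPM in W rats. KM 3 thus lay within the range of the “0” rats, and KM 1 was far above it. Fgfr2, the only one of 8 klotho-related genes that could be named, was higher in KM (0.61, and 0.58 without KM 3) and in “0” rats (0.42) than in W rats. No gene of the lists of Kcne2 partners and folate uptake could be named.

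Markers of other cells did not set KM 3 apart in the way of the 10 genes. The ciliated ependyma genes Dnah11 and Hydin, 2 of 15 listed, summed to 33.9 CPM in KM 3 and to 24.8 to 55.4 CPM in the other 10 rats. These 2 genes went opposite ways in KM vs W. Dnah11 was higher (0.998, and 1.28 without KM 3) and Hydin was lower (-0.66), a call that Hydin lost without KM 3. Dnah11 was also higher in “0” than in W rats (0.65) and, only without KM 3, in KM than in “0” rats (0.64). The meningeal fibroblast genes Fmod and Fbln1, 2 of 15, summed to 47.5 CPM in KM 3 and to 32.9 to 78.2 CPM in the others, and both were lower in KM than in W rats (-1.79 and -0.51), of which Fbln1 lost its call without KM 3. Of the endothelium list 4 of 9 were named. As in all these lists, named genes come from the study's list of differing genes, so their counts are descriptions. Flt1, Tek, Kdr and Egfl7 were all higher in KM and in “0” rats than in W rats, where 5.58% and 3.26% of all genes were. Their sums were 220, 224 and 230 CPM in KM, 164 to 242 CPM in “0” and 137 to 148 CPM in W rats. All 4 were also higher in KM than in W rats without KM 3, where 5.86% of all genes were. Of the astrocyte list 3 of 4 were named, of which Gfap was higher and Gja1 and Aldh1l1 were lower in KM than in W rats, with and without KM 3, and the sum in KM 3, 1744 CPM, lay within the range of the “0” rats. The tectum genes Pou4f1 and Lef1, 2 of 4, summed to 8.59 CPM in KM 3 and to 6.84 to 21.0 CPM in the others, with 1 count of Pou4f1 in KM 1 and 2 in KM 2, and Pou4f1 was lower in KM than in W rats and Lef1 lower in KM than in “0” rats, a call that Lef1 lost without KM 3. No named marker was at 0 in any rat. The lists for pineal gland, cerebellum and neurons held no gene that could be named, and their part in the values of the 10 genes was not tested.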

How the data were processed

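Messenger RNA of the colliculi of 11 rats was sequenced as directional poly(A) libraries with single-end reads. Following the methods of the study, reads were trimmed with Trimmomatic, mapped with STAR to Rnor_6.0 and counted per gene with HTSeq-count. Versions and the strand setting of the counting are not given in the sources used here. The authors deposited raw counts, whole reads per gene, without normalization, for 32883 genes and 12 summary rows, which were left out of library sizes and have names that HTSeq-count does not write. The share of reads on no gene was 16.5% to 22.7%.

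Strain and number were taken from the sample titles. Counts were compared with R 4.3.3 and edgeR 4.0.16, with TMM factors and the legacy quasi-likelihood F-test (QLF test), separately for each pair of strains, over the genes whose CPM averaged at least 1 in the rats compared. All 10 genes passed this filter in every comparison, with and without KM 3. As in the study, a gene was called when its unadjusted p was under 0.05, with Benjamini-Hochberg values over all genes tested. Log2 CPM used a prior count of 2, and permutations of a correlation numbered 100000. Exact permutation tests doubled the smaller tail. The fits were tested on simulated data in which no single rat was set apart, so that test does not cover the fits with KM 3. Replicates of a strain are different rats, and no pair of them differed by less than the sampling noise.

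The members, the gene lists and the rule for named genes were chosen with earlier results of these data known. The rule named all 10 genes, from each other list the genes with p under 0.05 (at most 5 per comparison), and the 10 genes most like Ttr. Symbols came from the study's list of differing genes, which names 1763 identifiers, Car12 among them under an older symbol. It also holds the authors' own fold changes and p-values, which were not used. Motifs were searched in RefSeq promoters of build GRCr8. Alternatives were DESeq2 1.42.0 (size factors and Wald test), the newer QLF method, filterByExpr, no filter, a block for the replicate number, 1 fit of the 11 rats, an adjusted threshold, another prior count, TMM-scaled CPM and leaving out each rat. Alternatives for the comparisons without KM 3 were added after seeing the data. Some genes of the other lists are not reported here.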

Additional observations from a re-analysis of the deposited data

Results flagged for a closer look

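Within-strain outliers were looked for in the 4 “0” and the 4 W rats, gene by gene, in 20 groups of 4 values, of which chance would mark about 1. Marks fell on the same rat, W 3, for 2 genes. Ttr in W 3, at 43.6 CPM, was marked because the gap to the next W rat took 0.917 of the range of the 4 rats. Tmem72 in W 3, at 3.88 CPM, was marked because the gap took 0.872 of the range. The KM rats, being 3, were not examined in this way.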

How the results depend on the processing

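The count of the 10 genes called was 7 for KM vs W, 9 for KM vs “0” and 3 for “0” vs W, and 3 and 4 without KM 3. At an adjusted p under 0.05 it was 0 in all 5. With DESeq2's Wald test it was 3 for KM vs W and 1 for KM vs “0”, where DESeq2 gave no p for 6 and 8 of the genes. A fit of all rats gave 0 in “0” vs W. Leaving out each rat gave 3 to 10 for KM vs W, 4 to 10 for KM vs “0”, 3 to 4 for “0” vs W, and, without KM 3, 1 to 6 and 2 to 5. For the wider choroid plexus list, with 6, 6 and 1 of 8 called, these ranges were 2 to 7, 2 to 6 and 0 to 2, and an adjusted threshold gave 0 in all 3. In “0” vs W that list had 2 called with DESeq2's size factors, with its Wald test and without a filter, and 3 with the newer QLF method. Of the correlations with Ttr, 5 of 9 had p under 0.05, 2 without KM 3, 1 without KM 3 at a prior count of 0.5, and 1 without KM 3 and W 3. Apart from these and the block, the causes of which were not tested, the counts of genes called were within 1.5 times those reported.

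Same-numbered rats are different animals and share only a number: deviations of same-numbered rats correlated on average at -0.047 for KM vs W, 0.12 for KM vs “0” and 0.0085 for “0” vs W, and 1 rat of 3, 1 of 3 and 1 of 4 correlated best with its own number. With the replicate block, 5 of the 10 genes were called for KM vs “0”, 5 for KM vs W and 3 for “0” vs W, the wider list had 2 in “0” vs W, and Clic6 in KM vs “0” without KM 3 was at -0.19. Without KM 3 the block gained calls for Ttr (2.45) and Tmem72 (2.56) and lost that of Kcne2 in KM vs W, and gained one for Mfrp (-1.28) and lost those of Kcne2 and Kl in KM vs “0”.

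Leaving out 1 rat turned the direction of differences of up to 3.31 on the log2 scale (Mfrp in KM vs W). In KM vs W Mfrp ranged from -0.31 to 3.88, Aqp1 from -1.69 to 2.65, Col8a2 from -0.19 to 1.97 and Folr1 from -0.73 to 2.55. In KM vs “0” Mfrp ranged from -1.37 to 2.80, Col8a2 from -0.047 to 2.10 and Folr1 from -0.60 to 2.67, the lowest value in each case being that without KM 3. Without KM 3, where some fits hold 1 KM rat that is assumed to vary like the other strain, the ranges in KM vs W were -0.46 to 2.71 for Ttr, -0.38 to 0.46 for Clic6, -2.03 to 0.46 for Mfrp and -0.34 to 0.0080 for Col8a2, and in KM vs “0” -0.49 to 0.59 for Slc4a5, -0.24 to 0.58 for Clic6 and -0.23 to 0.22 for Col8a2. In “0” vs W they were -0.15 to 0.069 for Kcne2, -0.33 to 0.090 for Kl, -0.38 to 0.15 for Clic6, -0.40 to 0.065 for Col8a2 and -0.34 to 0.10 for Folr1. Over all alternatives for single genes, 576 values kept direction and side of the threshold, 37 lost a call, 30 gained one and 28 turned direction.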

Other observations

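Of the 32 genes at least 5-fold higher in KM 3 than in every other rat, 12 could be named, the 10 choroid plexus genes, Enpp2 (5.78-fold) and Pomc (5.85-fold), the precursor of melanocortins and beta-endorphin, which was at 35.7 CPM in KM 3 and at most 6.09 CPM elsewhere.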
